A study of Mus musculus with 57 samples.

Results

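Distal H3K27ac sites shared by brain cortex and gastrocnemius muscle were examined, that is, acetylated regions away from the starts of curated RefSeq transcripts that were present in every library of both tissues. Overlapping H3K27ac peaks of all 19 libraries were merged on chromosomes 1 to 19, which gave 65999 regions. A region was kept when a peak of each of the 19 libraries overlapped it by at least 1 bp and when both of its edges lay more than 5 kb from every transcription start site (TSS) of the curated RefSeq transcripts. The rule left 3643 sites, or 5.52% of all merged regions, 7.27% of the 50143 distal regions and 28.4% of the 12829 regions present in all libraries. The sites were thus chosen by the measured H3K27ac peaks, so H3K27ac levels are described below without a test, and tests are given only for H3K4me3 and H3K27me3.

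The libraries came from 10 PSAPP mice of both sexes killed at 13 months of age, 9 of which gave cortex and all of which gave gastrocnemius. PSAPP mice are a transgenic model of Alzheimer's disease that expresses a mutated human presenilin 1 together with a chimeric mouse/human amyloid precursor protein bearing the Swedish mutation, and the sources used here do not name the promoter of the transgenes. Chromatin from pieces of snap-frozen cortex (9 libraries per mark) and gastrocnemius, a fast muscle of the calf (10 libraries per mark), was immunoprecipitated for H3K4me3, H3K27ac or H3K27me3 and sequenced. Every group carried the transgenes and ate the same controlled diet, so no comparison with mice that lack the transgenes can be drawn, and the sexes, which the labels do not give, were not separated. In such bulk tissue, fewer cells that carry a mark and less of the mark per cell cannot be told apart.

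H3K27ac, the acetylation of lysine 27 of histone H3, is laid down by the acetyltransferases CBP and p300 at active promoters and enhancers. H3K27me3, the trimethylation of the same residue by the Polycomb complex PRC2, marks repressed chromatin and cannot sit on the same histone tail as the acetyl group, while H3K4me3 is the mark of gene starts and, at a lower level, of some strong enhancers. Most enhancers are used in few cell types, so that distal acetylation is usually far less shared between tissues than acetylation of promoters.

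Reads in H3K27ac peaks ranged between 3.90 and 21 M per cortex library (median 17.3 M) and between 15.6 and 27 M per gastrocnemius library (median 19.3 M). The shared sites took 10.7 to 11.5% of them in the cortex and 11.1 to 11.9% in the gastrocnemius. The lowest total belonged to cortex library 9. Acetylated promoters followed the labelled tissue: of 9 neuron genes, 9 had an H3K27ac promoter peak in every cortex library and 2 to 3 in the gastrocnemius libraries, whereas of 14 skeletal muscle genes, 14 had one in every gastrocnemius library and 5 to 8 in the cortex libraries.

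The following stretches show what lies under the peaks. Each is the central 300 bases of the stretch that H3K27ac peaks of all 19 libraries covered, on the plus strand of GRCm38.p6 (mm10) as given by RefSeq, and capitals mark matches to the motifs spelled out further below. Windows from sites of high read density come first, named by their nearest gene, near Lrrc4c (chr2:98666650-98666949, intergenic) and near 4933422A05Rik (chr9:35305250-35305549, intergenic). These windows are repeat sequence: of the 300 bases, 294 and 300 are masked. They share an identical run of 73 bases, while no other pair among the stretches printed here shares more than 12.
Lrrc4c: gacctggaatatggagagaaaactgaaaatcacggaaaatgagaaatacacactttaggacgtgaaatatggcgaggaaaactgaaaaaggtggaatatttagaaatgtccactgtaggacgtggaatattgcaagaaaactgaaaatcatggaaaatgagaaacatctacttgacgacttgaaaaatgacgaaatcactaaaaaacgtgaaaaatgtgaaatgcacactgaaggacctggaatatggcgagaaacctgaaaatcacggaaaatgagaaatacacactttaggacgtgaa
4933422A05Rik: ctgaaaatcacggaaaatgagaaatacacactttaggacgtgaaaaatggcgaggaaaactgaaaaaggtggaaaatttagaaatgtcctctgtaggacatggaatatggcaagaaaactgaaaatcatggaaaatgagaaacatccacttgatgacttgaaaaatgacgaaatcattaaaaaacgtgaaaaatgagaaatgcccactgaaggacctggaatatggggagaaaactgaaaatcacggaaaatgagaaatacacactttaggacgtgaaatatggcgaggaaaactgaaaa
Then come 3 sites with a large difference in H3K27ac between the tissues, the first in an intron of Kalrn with Umps as the nearest start (chr16:34236450-34236749), the second in an intron of Rab6b near Srprb (chr9:103180650-103180949) and the third in an intron of Pde4d near Mir1904 (chr13:109775950-109776249).
Umps: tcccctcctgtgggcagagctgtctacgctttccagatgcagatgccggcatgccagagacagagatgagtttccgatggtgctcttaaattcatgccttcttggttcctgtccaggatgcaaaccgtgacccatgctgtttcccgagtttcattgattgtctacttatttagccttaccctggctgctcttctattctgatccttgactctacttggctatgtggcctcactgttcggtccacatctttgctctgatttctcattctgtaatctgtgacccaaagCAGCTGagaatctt
Srprb: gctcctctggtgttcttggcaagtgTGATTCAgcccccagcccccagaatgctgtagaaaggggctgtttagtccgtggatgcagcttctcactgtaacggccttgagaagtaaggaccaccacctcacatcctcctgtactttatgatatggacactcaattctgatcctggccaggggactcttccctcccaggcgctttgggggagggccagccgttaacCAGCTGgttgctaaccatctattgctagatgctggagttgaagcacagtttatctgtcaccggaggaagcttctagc
Mir1904: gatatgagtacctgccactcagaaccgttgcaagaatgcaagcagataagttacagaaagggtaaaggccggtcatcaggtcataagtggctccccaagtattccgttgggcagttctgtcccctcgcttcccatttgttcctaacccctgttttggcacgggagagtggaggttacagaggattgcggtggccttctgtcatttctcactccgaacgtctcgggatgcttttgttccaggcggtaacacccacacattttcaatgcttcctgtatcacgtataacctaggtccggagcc
The last 3 carry a contrast in H3K27me3 or belong to a hormone responsive gene. The intergenic site near Nek6 (chr2:38485150-38485449) had H3K27me3 in the cortex alone, the intergenic site near Commd3 (chr2:18608550-18608849) had it in the gastrocnemius alone, and the site in an intron of Fkbp5 (chr17:28420250-28420549) held H3K4me3 in the gastrocnemius alone.
Nek6: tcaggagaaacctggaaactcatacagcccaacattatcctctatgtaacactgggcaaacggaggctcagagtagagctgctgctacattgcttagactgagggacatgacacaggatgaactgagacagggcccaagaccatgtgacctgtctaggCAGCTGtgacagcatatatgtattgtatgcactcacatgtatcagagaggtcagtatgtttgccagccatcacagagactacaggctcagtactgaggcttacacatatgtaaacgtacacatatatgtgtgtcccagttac
Commd3: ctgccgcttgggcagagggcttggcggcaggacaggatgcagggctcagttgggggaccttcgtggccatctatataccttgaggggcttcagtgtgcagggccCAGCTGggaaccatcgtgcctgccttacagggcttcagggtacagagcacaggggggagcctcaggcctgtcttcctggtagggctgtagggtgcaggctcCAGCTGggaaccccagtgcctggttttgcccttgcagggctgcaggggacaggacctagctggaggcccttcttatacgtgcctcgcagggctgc
Fkbp5: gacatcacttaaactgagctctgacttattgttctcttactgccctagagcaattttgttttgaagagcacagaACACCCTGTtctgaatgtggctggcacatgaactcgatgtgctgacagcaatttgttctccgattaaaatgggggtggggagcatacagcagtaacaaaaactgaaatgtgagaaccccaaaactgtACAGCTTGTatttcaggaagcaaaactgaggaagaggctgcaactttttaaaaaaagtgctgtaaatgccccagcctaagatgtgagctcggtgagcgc

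The shared sites were broad. Their width had a median of 15.8 kb (quartiles 9.60 and 26.8 kb) and ran from 0.199 to 247 kb, and together they covered 79.1 Mb. Distal sites called in all 9 cortex and no gastrocnemius libraries (3054 sites, called cortex-only below) had a median width of 7.40 kb, and those called in all 10 gastrocnemius and no cortex libraries (1868 sites, gastrocnemius-only) one of 7.20 kb. Because a merged region joins peaks of 19 libraries, peaks of different libraries need not touch each other, and 3115 shared sites (85.5%) held a stretch that peaks of every library covered, with a median length of 1.60 kb (quartiles 1.2 and 2.60 kb).

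The sites lay nearer to RefSeq transcript starts than the tissue-specific ones. The median gap between a site and its nearest RefSeq TSS was 29.3 kb (quartiles 14.8 and 58.2 kb), against 56.6 kb at cortex-only and 42.4 kb at gastrocnemius-only sites. Only 404 shared sites (11.1%) were more than 100 kb from a TSS, compared with 30.2% and 23.4%. By their centre, 2105 (57.8%) fell in introns, 1376 (37.8%) between genes and 162 (4.45%) in exons of the curated transcripts. Introns held 61.8% of the cortex-only but 38.1% of the gastrocnemius-only sites. The wider GENCODE M21 annotation placed a transcript start inside 1528 shared sites (41.9%), against 15.4% of cortex-only and 14.9% of gastrocnemius-only sites. A wide region has more room for such a start, so these shares are not on an equal footing. Of 1006 experimentally tested enhancers listed by RefSeq on these chromosomes, 100 (9.94%) overlapped a shared site. This came to 1.26 per Mb of region, against 0.524 per Mb in cortex-only and 1.08 per Mb in gastrocnemius-only sites. Among them were a pair of embryonic brain enhancers in the site near Ppp1r15b, which is described further below.

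The central windows had a median GC content of 49.3% (3093 windows, quartiles 45.3 and 53.3%), compared with 47.7% at cortex-only and 44.7% at gastrocnemius-only sites. The ratio of observed to expected CpG dinucleotides had medians of 0.255, 0.223 and 0.186 in the same order. Motifs were searched on both strands as exact letters, no motif contains another, and the share of windows with a match is given for shared, cortex-only and gastrocnemius-only windows and for 300-base windows at gene promoters, in that order. The SP/KLF motif GGGCGGG was in 7.31, 3.22, 1.57 and 25.8% and the ETS motif CCGGAA in 5.34, 3.18, 3.75 and 15.1%. The CTCF core AGGGGGC was in 6.01, 4.59, 2.85 and 10.7%, and the E-box CAGCTG in 22.7, 18.4, 18.7 and 16.3%. For the AP-1 motif TGANTCA the shares were close to each other at distal sites (11.5, 11, 11.5 and 7.85%). The motif of MEF2, a muscle and neuron regulator, TAAAAATAG, was in 1.10, 0.924, 2.41 and 0.471%, the forkhead motif TGTTTAC in 4.33, 3.60, 6.38 and 3.71%, and the glucocorticoid receptor motif ACANNNTGT in 9.09, 10.4, 11.9 and 6.90%. Matches to the cyclic AMP element TGACGTCA (0.453, 0.274, 0.224 and 1.83%) and to the NRF1 motif GCATGCGC (0.582, 0.753, 0.336 and 2.70%) were rare at distal sites. These shares describe letters only, and all comparisons of position and sequence here are descriptions without a test.

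At the border of the rule, 51 shared sites had a gap to the nearest TSS of 5.0 to 5.5 kb, and 42 regions of all libraries were left out with a gap of 4.5 to 5.0 kb. A further 1328 distal regions were missed by 1 library. Their median H3K27ac density, the RPM (reads per 1 M reads in autosomal peaks of the library) divided by the width, was 0.976 RPM per kb, against 1.30 RPM per kb at the shared sites. Of these regions, 807 (60.8%) were missed by cortex library 9, the shallowest, and without it the rule would have given 4470 sites, whereas leaving out any of the other 18 libraries gave 3655 to 3892.

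H3K27ac levels at the sites ranged from equal to strongly unequal between the tissues. The log2 ratio of the mean RPM in cortex over that in gastrocnemius had a median of 0.03 over the 3643 sites (quartiles -0.69 and 0.74), against -0.04 over all 12829 regions called in every library, and spanned -3.86 to 4.58. It stayed within 2-fold at 2394 sites (65.7%), exceeded 2-fold in favour of the cortex at 644 and in favour of the gastrocnemius at 605. At 694 sites (19.1%) every cortex library was above every gastrocnemius library, where 20.2% of all regions called in every library did so, and at 662 (18.2%) every gastrocnemius library was above every cortex library, where the background was 23.3%. The ranges of the tissues overlapped at the remaining 2287 sites (62.8%). Within a tissue the libraries varied by a median coefficient of variation of 20.3% in the cortex and 21.4% in the gastrocnemius.

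**Figure D1:**
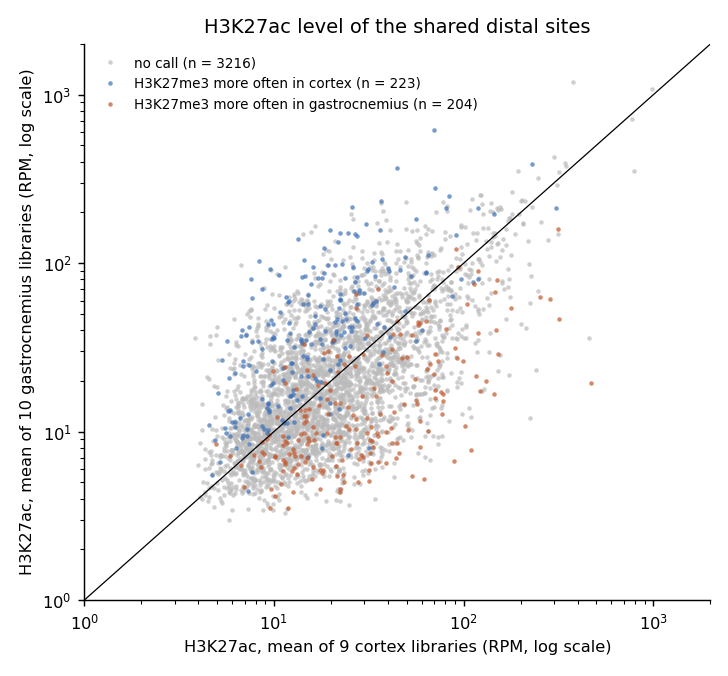
Mean H3K27ac of each of the 3643 shared distal sites in 9 cortex libraries (horizontal axis) and 10 gastrocnemius libraries (vertical axis), in RPM, on log scales. Colours mark the 223 sites with H3K27me3 more often in the cortex and the 204 with it more often in the gastrocnemius, by Fisher's exact test. The diagonal line marks equal values.

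The sites with the largest H3K27ac ratio in favour of the cortex all lay in introns. The sites with the largest ratios, in either direction, were taken from those at which the tissues do not overlap, so the lack of overlap at each is set by that choice. The largest was a site of 162 kb inside Kalrn (chr16:34141401-34303599), which encodes a guanine nucleotide exchange factor of dendritic spines, and Umps had the nearest TSS at 174 kb. It held 369 to 595 RPM in the cortex (median 466) and 6.49 to 29.2 RPM in the gastrocnemius (median 20.1), so that the ranges were far apart and the means differed 23.9-fold. All 9 cortex and none of the 10 gastrocnemius libraries had an H3K4me3 peak in it, and H3K27me3 was called in none of the cortex and in all 10 gastrocnemius libraries.

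A site in Jph3, the gene of a junctophilin of neurons, with Klhdc4 as the nearest start (chr8:121751801-121821999), held 194 to 260 RPM in the cortex (median 224) and 3.32 to 22.9 RPM in the gastrocnemius (median 11.5), an 18.4-fold difference of means. Its ranges did not overlap either, although H3K27me3 was called there in 9 cortex and 10 gastrocnemius libraries. A site in Fam13c near Phyhipl (chr10:70526801-70577399) held 99.7 to 122 RPM (median 108) against 2.37 to 15.7 RPM (median 7.53), or 13.9-fold. The site in Rab6b, whose product is a Golgi GTPase abundant in neurons (nearest start Srprb, chr9:103156601-103193199), held 78.9 to 113 RPM (median 82.7) against 4.43 to 12.2 RPM (median 6.41), or 13.3-fold. The highest values of both ranges belonged to 1 library each, cortex library 9 and gastrocnemius library 5, and the ranges remained apart. In the fifth, within Gabbr2, which encodes a subunit of the GABA-B receptor (nearest start Tbc1d2, chr4:46673801-46849999), the cortex libraries held 263 to 640 RPM (median 450) and the gastrocnemius libraries 24.6 to 51.2 RPM (median 34.2), or 12.7-fold.

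In the other direction the largest ratio was found in an intron of Pde4d, the gene of a cyclic AMP phosphodiesterase (nearest start Mir1904, chr13:109768401-109810999). It held 4.61 to 9.52 RPM in the cortex (median 6.42) and 79 to 123 RPM in the gastrocnemius (median 96.2), 14.5-fold higher in the latter without overlap. H3K4me3 was nevertheless called there in all 19 libraries and H3K27me3 in none. The intergenic site near Ephb1, which encodes an ephrin receptor (chr9:102399801-102450799), held 4.20 to 10.8 RPM (median 8.89) against 62.0 to 156 RPM (median 99.5), or 12.4-fold. It carried H3K27me3 in 9 cortex and 2 gastrocnemius libraries. The intergenic site near Gm5083 (chr13:44033801-44070199) held 4.64 to 11.7 RPM (median 7.17) against 74.6 to 88.3 RPM (median 81.3), or 10.6-fold.

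A site whose centre fell in an exon of Akap13, the gene of an A-kinase anchoring protein and guanine nucleotide exchange factor (chr7:75591201-75635799), held 11.2 to 18.2 RPM in the cortex (median 15.4) and 138 to 171 RPM in the gastrocnemius (median 149), or 10.4-fold. An intronic site of Rbm20, a splicing regulator of titin in striated muscle (chr19:53719401-53775399), held 3.29 to 21.6 RPM (median 11.5) against 93.9 to 194 RPM (median 138), also 10.4-fold. Neither range overlapped with that of the other tissue. At Rbm20, H3K4me3 was called in 0 cortex and 9 gastrocnemius libraries and H3K27me3 in 7 and 1, respectively.

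**Figure D2:**
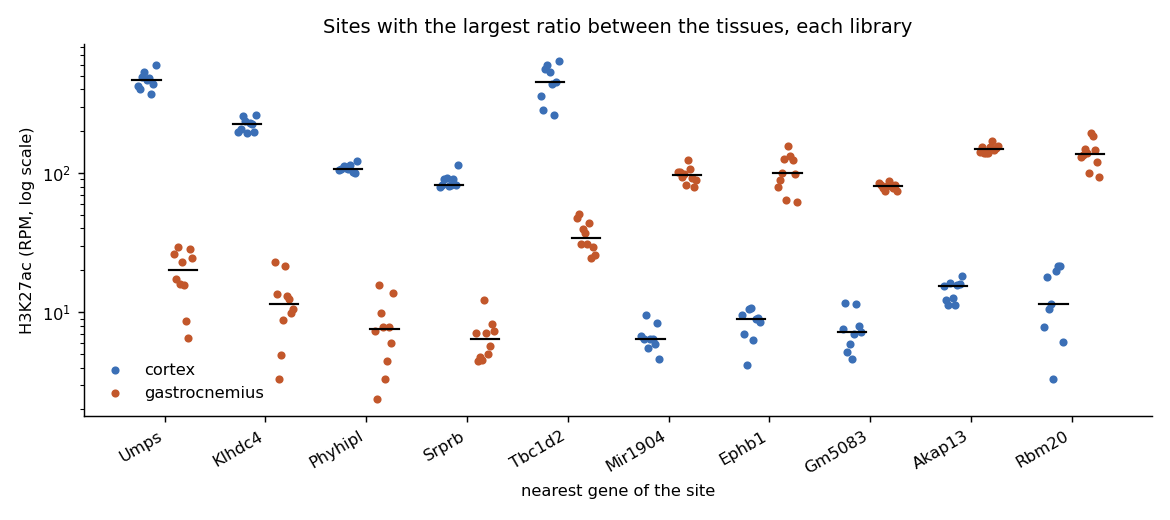
H3K27ac of the 5 sites with the largest ratio in favour of each tissue, in RPM on a log scale, 1 point per library and a line at the median. The sites, labelled by the nearest gene, were picked among those at which the tissues do not overlap, and the widest separation is at the site near Umps inside Kalrn (medians 466 and 20.1).

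The sites of highest H3K27ac density were at most 5.80 kb wide, and the share masked as repeat ran from 4.21 to 81.9% over the first 10 of them. Ranked by the lowest density over the 19 libraries, the first 10 sites were 3 near Lrrc4c and 1 each near Gm2237, Rab10os, Chl1, 4933422A05Rik, Esp38, 4930467E23Rik and Csf2ra, and 9 of the 10 (all but that near 4930467E23Rik) also carried H3K27me3 in all 19 libraries. At 6 of them (those near Lrrc4c, Gm2237, Rab10os and Chl1) the density exceeded 10 times the median of the shared sites in every library, and peaks of all 57 libraries, whatever the mark, overlapped them. The extreme case was the 1.2 kb site near Lrrc4c (chr2:98666201-98667399), of which 79.9% is masked as repeat. Its median RPM was 1001 in cortex and 1090 in gastrocnemius for H3K27ac, 3094 and 3398 for H3K4me3, and 5931 and 5404 for H3K27me3. Reads of all 3 immunoprecipitations were thus high there in both tissues, and 73 bases of its repeat recur in the site near 4933422A05Rik, as printed above. None of the 57 libraries was made without immunoprecipitation, so these reads are not taken as levels of the marks. Without the 6 sites of extreme density, 3637 remained.

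H3K4me3 peaks were frequent at the shared sites and more so in muscle. The share of the 3643 sites overlapped by an H3K4me3 peak was 27.9 to 42.5% over the cortex libraries and 41.6 to 60.6% over the gastrocnemius libraries, with a narrow overlap of the ranges. The mean was 34.7% ± 4.71 (SD, n = 9) in the cortex and 50.2% ± 6.18 (SD, n = 10) in the gastrocnemius. The difference of -15.4 percentage points was larger than the spread between libraries (exact permutation test over 92378 relabellings, two-sided, p = 3.25e-05, adjusted p = 0.000195 over 6 tests). H3K4me3 peaks covered 52.3 to 66.8 Mb in the cortex libraries but 70.7 to 108 Mb in the gastrocnemius libraries, and with equally many top-scoring peaks per library the difference was -6.98 points (exact permutation p = 1.08e-05). It was -6.72 points when only 1 kb around the centre was read (exact permutation p = 1.08e-05) and -1.26 points when a peak had to cover at least 50% of a site (exact permutation p = 0.000173). Libraries whose deposited names carry a run number (2 of cortex, 4 of gastrocnemius) gave -5.09 points (exact permutation p = 0.267, where 0.0667 is the smallest possible), and the others gave -19.8 points (exact permutation p = 0.000583).

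H3K4me3 was most frequent at the centre of the stretch that H3K27ac peaks of all libraries covered, which need not be the middle of the site. In the 3115 sites with a stretch common to all libraries, its centre was inside an H3K4me3 peak at 30.2% ± 3.40 of sites in the cortex (SD, n = 9) and 43.2% ± 4.35 in the gastrocnemius (SD, n = 10). At 5 kb to the left and right the values fell to 0.82 and 0.97% in the cortex and to 2.10 and 2.64% in the gastrocnemius, and at 20 kb they were 3.53 and 3.49% and 5.53 and 5.70%. By the rule, no curated TSS could lie between the centre and the points at 5 kb, whereas one could lie at 20 kb. H3K27ac, which covers the centre by construction, was at 30.8% of the sites in the cortex and 36.6 to 37.2% in the gastrocnemius at 5 kb. H3K27me3 varied far less with position: it covered the centre at 7.25% of sites in the cortex and 10.01% in the gastrocnemius, and the points at 5 kb at 7.43 to 7.54% and 7.98%, so that the centre lay above the points at 5 kb in the gastrocnemius but not in the cortex.

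**Figure D3:**
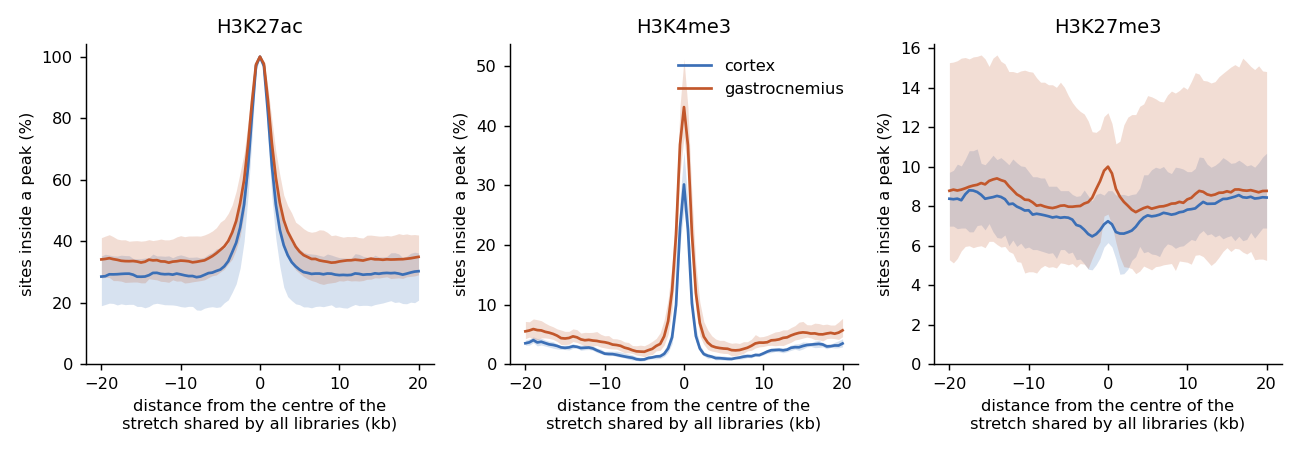
Share of the 3115 sites that lie inside a peak of H3K4me3, H3K27ac or H3K27me3, by distance in kb from the centre of the stretch shared by all H3K27ac libraries; lines are means over 9 cortex or 10 gastrocnemius libraries and bands run from the lowest to the highest library. H3K4me3 stands at 30.2 and 43.2% at the centre and near 1 to 3% at 5 kb, while the means of H3K27me3 stay between 6.48 and 10.01% throughout.

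Site by site, H3K4me3 was called in all 19 libraries at 833 sites (22.9%) and in none at 1034 (28.4%). Every cortex library called it at 930 and none at 1988 sites, whereas in the gastrocnemius every library called it at 1319 and none at 1167. A complete contrast was found at 157 sites with H3K4me3 in 0 of 9 cortex and 10 of 10 gastrocnemius libraries, and at 27 sites in the opposite direction. The share of complete contrasts over all regions was not computed. By Fisher's exact test on the number of libraries with a peak, corrected over all 22315 merged regions tested, 473 of the 2609 shared sites with a call in at least 1 library (18.1%) carried H3K4me3 more often in the gastrocnemius, against a background of 8.45%. Only 71 (2.72%) carried it more often in the cortex, against a background of 8.55%.

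Sites with constant H3K4me3 were narrower and richer in CpG. The 833 sites with the mark in all libraries had a median width of 11.2 kb, a GC content of 52.3% and a CpG ratio of 0.443, whereas the 1034 sites without it had 15.6 kb, 48.3% and 0.176. A RefSeq transcript start of any kind, predicted ones included, lay inside 40.2% of the former and 15.4% of the latter. For GENCODE starts the shares were closer, 46.2 and 38.8%. Where a GENCODE start lay inside (1528 sites), 36.4% ± 4.09 of sites had an H3K4me3 peak in the cortex (SD, n = 9) and 53.8% ± 6.01 in the gastrocnemius (SD, n = 10). At the 2115 sites without one the shares were 33.5% ± 5.18 and 47.6% ± 6.34.

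Shared sites carried H3K4me3 far more often than tissue-specific ones in the same libraries. In the cortex libraries 34.7% of shared but 14.7% ± 3.18 (SD, n = 9) of cortex-only sites had a peak, with a difference of 20.1 points that ran from 18.1 to 23.0 (exact sign-flip permutation test, p = 0.00391, the smallest possible, adjusted p = 0.00469). In the gastrocnemius libraries 50.2% of shared but 20.9% ± 6.81 (SD, n = 10) of gastrocnemius-only sites had one, with a difference of 29.2 points from 27 to 31.4 (exact sign-flip permutation p = 0.00195, the smallest possible, adjusted p = 0.00391). Shared sites are wider, and within 1 kb at the centre the differences were 4.54 and 8.14 points. Over the stretch covered by H3K27ac peaks in every library of the tissues that define each kind of site, they were 19.3 and 27.1 points. This window was chosen after seeing the data, and its median length was 1.60 kb at shared and 1.80 kb at cortex-only and gastrocnemius-only sites. When a peak had to cover at least 50% of the site, the cortex difference turned to -0.523 points (exact sign-flip permutation p = 0.00391) and the gastrocnemius difference was 1.80 points.

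**Figure D4:**
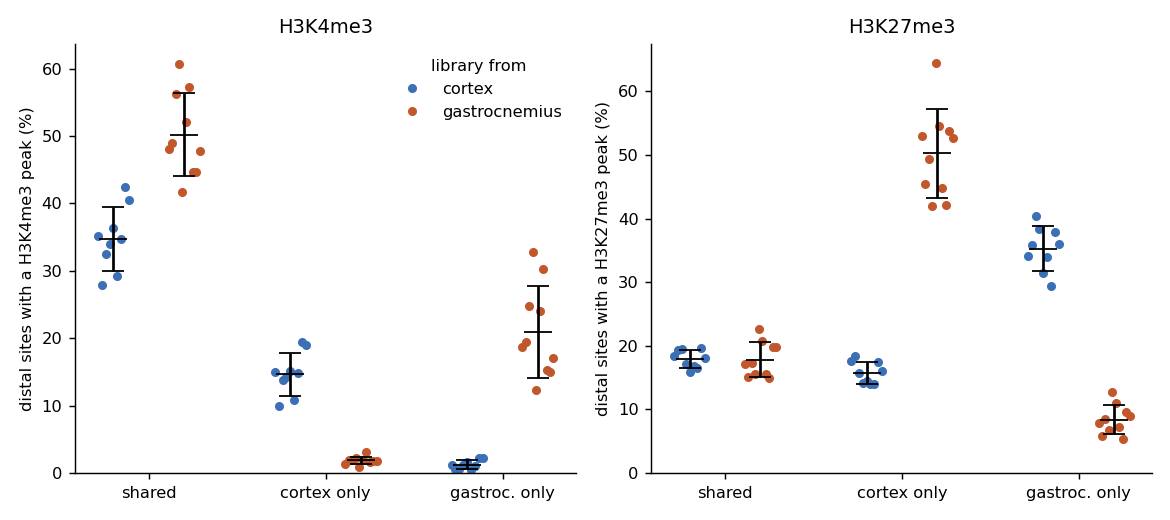
Percentage of distal sites with an H3K4me3 peak (left) or an H3K27me3 peak (right) among shared, cortex-only and gastrocnemius-only sites; each point is 1 library, and bars give the mean and SD over 9 cortex or 10 gastrocnemius libraries. Shared sites stand highest for H3K4me3 in both tissues (34.7 and 50.2%), whereas H3K27me3 is highest at the sites specific to the other tissue (35.3% in cortex and 50.3% in gastrocnemius libraries, against 17.9 and 17.8% at shared sites).

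The amount of H3K4me3 was compared at 862 H3K4me3 regions that were called in every H3K4me3 library and overlapped a shared site, among 13611 such regions in all. They fell in 816 sites. By edgeR's quasi-likelihood test with Benjamini-Hochberg adjustment over all regions, 217 of the 862 (25.2%) held more reads in the cortex, against a background of 38.7%, and 443 (51.4%) held more in the gastrocnemius, against 37.1%. Their median log2 fold change of cortex over gastrocnemius was -0.23, compared with 0.00 over all regions tested.

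The regions with the largest gain in the cortex lay near Arid4a (chr12:71045801-71058999, log2 fold change 2.73 ± 0.11, SE, edgeR adjusted p = 1.65e-16), which encodes a retinoblastoma-binding chromatin protein, in an intron of Macf1, a linker of microtubules and actin, with Mir6398 as the nearest start (2.69), and in an intron of the kinase gene Taok3 near Pebp1 (2.63). An intergenic site 272 kb from Prl5a1, a prolactin family gene (chr13:28414601-28422999), followed with 2.47 ± 0.10 (SE, edgeR adjusted p = 1.07e-16). There, normalised H3K4me3 was 126 to 150 CPM (counts per 1 M, scaled by edgeR) in the cortex (median 133) and 18.9 to 38.2 CPM in the gastrocnemius (median 23.7). The values of the tissues were well apart, as were those of H3K27ac, with 41.6 to 53.7 RPM (median 47.3) against 6.21 to 12.8 RPM (median 9.11).

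The fifth was the intergenic site near Ppp1r15b, whose product directs a phosphatase to the translation factor eIF2 alpha (chr1:133167801-133196599). H3K4me3 was 103 to 122 CPM in the cortex (median 113) and 17.8 to 23.7 CPM in the gastrocnemius (median 22), without overlap, and the log2 fold change was 2.37 ± 0.05 (SE, edgeR adjusted p = 2.20e-21). RefSeq lists a pair of enhancers in this site, both recorded as active in the embryonic forebrain and hindbrain, and the first lies inside the H3K4me3 region (133180201 to 133184399). The site still carried H3K27me3 in 8 cortex and 10 gastrocnemius libraries.

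In favour of the gastrocnemius, the exonic Akap13 site led with 7.29 to 15.5 CPM in the cortex (median 10.5) against 79.7 to 125 CPM in the gastrocnemius (median 91.2), a log2 fold change of -3.05 ± 0.13 (SE, edgeR adjusted p = 3.57e-16). Its H3K27ac was higher in the same tissue, as given above. The list also held 2 regions (-2.85 and -2.70) inside 1 site of 217 kb in Tns1, the gene of the focal adhesion protein tensin (chr1:73899401-74115999), where H3K27ac was 332 to 423 RPM in the cortex and 946 to 1434 RPM in the gastrocnemius. A site at Sorbs2os within Sorbs2, an adaptor of Z-discs and stress fibres (-2.84), and an intergenic site near Ly6e (-2.51) completed the list. At Sorbs2os the H3K27ac ranges overlapped almost wholly (17.7 to 94.8 RPM in cortex, 28.9 to 105 RPM in gastrocnemius) although H3K4me3 did not, with 2.51 to 6.87 CPM against 15.4 to 45.4 CPM.

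H3K27me3 was called at a minority of shared sites in either tissue. It overlapped 17.9% ± 1.40 of sites in the cortex (SD, n = 9, range 15.9 to 19.6%) and 17.8% ± 2.71 in the gastrocnemius (SD, n = 10, range 14.9 to 22.6%). The difference of 0.081 points was within the spread between libraries (exact permutation p = 0.939, adjusted p = 0.939), which does not show that the shares were equal. Over the stretch common to all H3K27ac libraries, a window chosen after seeing the data, the shares were 8.56% ± 0.91 (SD, n = 9) and 11.3% ± 1.84 (SD, n = 10), a difference of -2.79 points (exact permutation p = 0.000866). Peaks that covered at least 50% of the site gave -1.85 points (exact permutation p = 0.0457), and libraries without a run number gave 1.74 points (exact permutation p = 0.0373).

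Compared with sites specific to the other tissue, the shared sites had H3K27me3 less often. Sites specific to the other tissue were chosen for having no H3K27ac peak in the tissue that is read here, and both modifications occupy the same lysine, so these values are a description. The exact sign-flip permutation tests of both differences (p = 0.00195 and p = 0.00391) are among the 6 over which p-values were adjusted and support nothing here. In the gastrocnemius libraries 50.3% ± 6.95 (SD, n = 10) of cortex-only sites had a peak, and the shared sites were lower by 26.4 to 41.9 points in each library (mean difference -32.4). In the cortex libraries 35.3% ± 3.48 (SD, n = 9) of gastrocnemius-only sites had a peak, and the shared sites were lower by 12.8 to 21.3 points (mean difference -17.4). Both differences kept their direction in every alternative that was run. Against sites of the tissue's own the picture was another, given without a test. In the gastrocnemius libraries 17.8% ± 2.71 (SD, n = 10) of shared and 8.36% ± 2.31 of gastrocnemius-only sites had an H3K27me3 peak, and in the cortex libraries 17.9% ± 1.40 (SD, n = 9) of shared and 15.7% ± 1.72 of cortex-only sites. Over the stretch covered by H3K27ac peaks in every library of the tissues that define each kind of site, the shared sites were still the higher in the gastrocnemius (11.3% against 6.08%) but the lower in the cortex (8.56% against 12.4%).

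No library had H3K27me3 at 2071 shared sites (56.8%) and all 19 had it at 128 (3.51%). Of the 1572 sites with a call in at least 1 library, Fisher's exact test found 223 (14.2%) with H3K27me3 more often in the cortex, against a background of 10.9% of the 36069 regions tested, and 204 (13.0%) with it more often in the gastrocnemius, against 14.4%. At 54 sites all cortex and no gastrocnemius libraries had the mark, and at 36 sites the reverse held. The share of such complete contrasts over all regions was not computed.

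H3K27ac was lower where H3K27me3 was more frequent. At the 223 sites with H3K27me3 more often in the cortex, the median log2 ratio of H3K27ac in cortex over gastrocnemius was -1.01, with 125 sites (56.1%) higher in every gastrocnemius library and 4 higher in every cortex library. At the 204 sites with H3K27me3 more often in the gastrocnemius the median was 1.07, with 109 sites (53.4%) higher in every cortex library and 6 higher in every gastrocnemius library. The 2071 sites without H3K27me3 had a median of 0.01, and 357 sites (17.2%) were higher in every library of each tissue. H3K4me3 went with H3K27ac: the medians were 0.74 at the 71 sites with H3K4me3 more often in the cortex and -0.64 at the 473 with it more often in the gastrocnemius. These are descriptions over sites that share their libraries, and no test is attached to them.

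**Figure D5:**
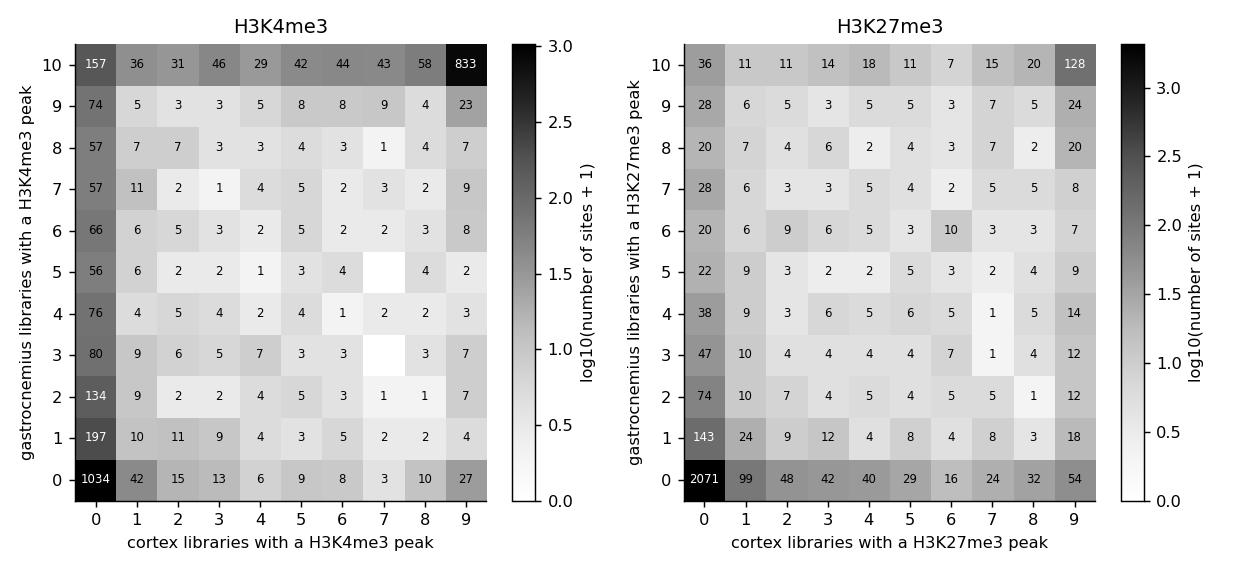
Number of cortex libraries (horizontal axis, 0 to 9) and gastrocnemius libraries (vertical axis, 0 to 10) with an H3K4me3 peak (left) or an H3K27me3 peak (right) at each shared site, with the number of sites on a log scale of shades. Most sites fall in the corners: 833 have H3K4me3 in all libraries and 1034 in none, 157 have it in all gastrocnemius and no cortex libraries, and 2071 have H3K27me3 in no library.

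Among the sites with a complete H3K27me3 contrast, taken in genome order, those with the mark in 9 of 9 cortex and 0 of 10 gastrocnemius libraries (Fisher's exact test, adjusted p = 0.00022) were near Ackr3, an atypical chemokine receptor gene, Gm29483, Nek6, which encodes a mitotic kinase, Nat10 (inside Abtb2) and A530013C23Rik. The site near Nek6 (chr2:38478001-38487999), whose centre is printed above, was almost balanced in H3K27ac, with 7.35 to 16.9 RPM in the cortex (median 11.3) and 6.42 to 15.9 RPM in the gastrocnemius (median 11.9). At the site near A530013C23Rik (chr2:167708001-167750399) the levels were 23.3 to 41.6 RPM (median 35.0) and 61.1 to 101 RPM (median 84.4), without overlap.

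Sites with H3K27me3 in 0 of 9 cortex and 10 of 10 gastrocnemius libraries (Fisher's exact test, adjusted p = 0.00022) were near Commd3, a gene of endosomal trafficking, Lrrc55, Mir7221, 4930405A21Rik (inside Dlgap4, a scaffold gene of the postsynapse) and St6galnac3, a sialyltransferase gene. At the 4 kb site near Commd3 (chr2:18606601-18610599) H3K27ac was 23.3 to 34.8 RPM in the cortex (median 27.3) and 6.84 to 14.4 RPM in the gastrocnemius (median 10.2), and H3K4me3 was called in all 19 libraries. Acetylation was lower in the tissue with H3K27me3, and the ranges did not overlap. At St6galnac3 (chr3:153666801-153693799) it was 49.7 to 86.3 RPM (median 61.6) against 2.88 to 13.7 RPM (median 11). Near Lrrc55 (chr2:85244401-85258399), by contrast, it was 8.77 to 24.6 RPM (median 20.03) against 15.9 to 25.7 RPM (median 18.8), with overlap.

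The first sites in genome order with H3K4me3 in all cortex and no gastrocnemius libraries (Fisher's exact test, adjusted p = 0.000148) were near Zcchc2, Dtl, Arhgap21, Zfp831 and Fam160a1, and H3K27ac did not follow at each: near Dtl (chr1:191505801-191553799) it was 10.4 to 21 RPM in the cortex (median 13.8) and 41.7 to 79.2 RPM in the gastrocnemius (median 64.3). There the acetylation was higher, without overlap, in the tissue that lacked H3K4me3. Near Fam160a1 (chr3:85769801-85782799) the same held, with 2.95 to 9.16 RPM (median 4.10) against 11.4 to 24.5 RPM (median 17). No base was covered by H3K27ac peaks of all 19 libraries in this site, nor in those near Zcchc2, Zfp831, Klhdc4, Rbm20, Ackr3, Fzd7, Tie1 and Ddit4. The marks called at such a site may lie at different places in it. In the opposite direction, the sites near Fam178b, Mir7681 (inside Hecw2), Ankrd44, the Wnt receptor gene Fzd7 and Gm19582 (inside Dgkd) had H3K4me3 in all gastrocnemius and no cortex libraries (Fisher's exact test, adjusted p = 0.000148), and each was 1.92- to 3.95-fold higher in H3K27ac in the gastrocnemius.

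The sites were spread over 2678 nearest genes, of which 2045 were nearest to 1 site, 193 to at least 3 and 38 to at least 5. Aopep, an aminopeptidase gene, and Zfp608, a zinc finger gene, were nearest to 8 sites each and Ank3, the gene of ankyrin G at the axon initial segment, to 7. A further 11 genes tied with 6 sites, of which the first 7 by name were 2010106C02Rik (all in introns of Prkce, the gene of protein kinase C epsilon), the transcription factor gene Bach2, Fry, Kalrn, Ldlrad4, Lrrc8d and Maml3, which encodes a Notch coactivator. Sites of 1 gene did not all behave alike. Of the 7 Ank3 sites, the log2 ratio of H3K27ac in cortex over gastrocnemius ran from -0.39 to 1.57, and H3K27me3 was called at 2 of them in 1 or 2 gastrocnemius libraries and in no cortex library. At the 8 Aopep sites it ran from -1.86 to 0.12, and H3K27me3 was called in no library.

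At the sites nearest to Kalrn, mean H3K27ac was higher in the cortex and H3K27me3 was called in gastrocnemius libraries alone. At these 6 sites (between chr16:34316201 and 34575999, the large site described above not among them because Umps has the nearest start) the log2 ratio of H3K27ac ran from 0.87 to 1.89, no cortex library had H3K27me3, and 5 to 10 gastrocnemius libraries had it. Their H3K4me3 differed from site to site, with a peak in 0 cortex and 9 gastrocnemius libraries at chr16:34360601-34433199 (Fisher's exact test, adjusted p = 0.00112) but in 7 cortex and 0 gastrocnemius libraries at chr16:34463001-34482399 (adjusted p = 0.00533). Over the introns of Prkce, the ratio went from 2.11 at chr17:86388001-86426399 (76.5 to 118 RPM against 10.3 to 32.5 RPM) to -0.57 at chr17:86477601-86563399 (117 to 175 RPM against 175 to 229 RPM). Both are intronic, and neither had H3K27me3 in any library.

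Genes of lists with a known role were counted by whether they were nearest to at least 1 shared site, which held for 2678 of all 24963 genes (10.7%). These counts are descriptive, since the lists were drawn up with earlier results known. For the insulin and FoxO pathway it was 7 of 14 genes (among them Insr, Foxo1, Foxo3, Pik3r1, Rictor and Rptor), for immediate early genes 6 of 18 (Fos, Jun, Egr1, Egr3, Ier2 and Klf6), for glucocorticoid responsive genes 4 of 13 (Fkbp5, Sgk1, Klf9 and Ddit4), for the circadian clock 4 of 18 (Arntl, Rora, Hlf and Bhlhe41) and for endothelial cells 5 of 20 (Flt1, Tie1, Sox17, Ptprb and Klf4). Of the neuron genes it was 2 of 9 (Snap25 and Nefl), of skeletal muscle genes 1 of 14 (Mb), and of cytoskeleton and housekeeping genes 1 of 11 (Myh9). None of the genes of mural and smooth muscle cells (12 genes), macrophages and microglia (14), fibroblasts (12) or astrocytes and oligodendrocytes (11) was nearest to a shared site. For cortex-only and gastrocnemius-only sites the counts were 1 and 4 of 14 in the insulin and FoxO pathway and 2 and 1 of 18 immediate early genes. They were 0 and 0 of 13 glucocorticoid responsive, 0 and 2 of 18 clock and 1 and 6 of 20 endothelial genes. Of the neuron genes they were 5 and 0 of 9, where all genes gave 6.47 and 5.25%.

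The insulin receptor gene Insr had an intronic site of 75 kb (chr8:3196801-3271799) with H3K27ac of 69.0 to 97.1 RPM in the cortex (median 87.1) and 128 to 171 RPM in the gastrocnemius (median 137), 1.71-fold higher in the latter without overlap. H3K4me3 was called there in all 19 libraries and H3K27me3 in none. At Foxo1, the transcription factor restrained by insulin (chr3:52190201-52202399), the levels were 18.4 to 25.7 RPM (median 22.8) and 18.1 to 25.7 RPM (median 22.4) and overlapped fully.

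Fos and Jun, which encode the partners of the AP-1 transcription factor, showed opposite patterns. The site near Jun (chr4:95065001-95111599) held 6.51 to 15 RPM in the cortex (median 8.82) and 83 to 106 RPM in the gastrocnemius (median 93.4), 9.64-fold higher without overlap, and had H3K27me3 in 9 cortex and 0 gastrocnemius libraries. The site near Fos (chr12:85510201-85528599) held 22.5 to 38.5 RPM in the cortex (median 27.3) and 6.05 to 16.4 RPM in the gastrocnemius (median 10.5), with H3K4me3 in 9 cortex and 0 gastrocnemius libraries and no H3K27me3. At Arntl, the core clock gene that encodes BMAL1 (chr7:113212801-113258599), H3K27ac was 104 to 156 RPM in the cortex (median 123) and 52.7 to 96.8 RPM in the gastrocnemius (median 76.8). Its H3K4me3 went the other way, with a peak in 0 cortex and 9 gastrocnemius libraries.

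Fkbp5 encodes a co-chaperone of the glucocorticoid receptor and is itself induced by the hormone. Its intronic site (chr17:28405401-28456199), whose printed centre holds 2 matches to ACANNNTGT, had 25.5 to 81.5 RPM of H3K27ac in the cortex (median 60.1) and 115 to 216 RPM in the gastrocnemius (median 157), without overlap. H3K4me3 was called in 0 cortex and 10 gastrocnemius libraries. The wider of the sites near Klf9, another target of the receptor (chr19:22999001-23080799), held 50.4 to 107 RPM (median 80.1) against 164 to 223 RPM (median 210), whereas the sites of Sgk1 (27.3 to 41.3 RPM against 18.2 to 36.8 RPM) and Ddit4 (10.4 to 19.5 RPM against 10.1 to 22.6 RPM) overlapped between the tissues. Of the endothelial genes, Flt1, a receptor of vascular endothelial growth factor (chr5:147628401-147688999), had 5.64 to 36.5 RPM (median 20.4) against 78.7 to 181 RPM (median 141). It had the largest ratio of the 6 sites near endothelial genes, whose median log2 ratio was -0.73. Besides it the site near Ptprb did not overlap between the tissues, while those near Sox17, Tie1 and Klf4 (2 sites) did. At Snap25, the SNARE protein gene of synaptic vesicles (chr2:136668201-136682799), H3K27ac was 39.1 to 55.4 RPM (median 45.0) against 13.6 to 24.5 RPM (median 17.4), again without overlap. The site near Nefl, which encodes the neurofilament light chain (chr14:68047401-68052799), held 3.64 to 8.68 RPM (median 5.42) against 3.73 to 9.38 RPM (median 7.52), and these ranges overlapped.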

How the data were processed

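The authors mapped reads with BWA (mm10), used SAMtools to drop duplicates and reads of low mapping quality, and called peaks in each library apart with epic2 in windows of 200 bp. The sources used here do not name the epic2 version. Each peak was deposited with its read count, a whole number that the authors did not normalize, and with epic2's score, which served here only to rank peaks. Reads outside peaks were not analysed, so a site called without a mark may still hold some of its reads.

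H3K27ac peaks were merged, reads were summed per region and divided by the reads in autosomal peaks (RPM), and 43783 curated RefSeq transcripts of 24963 autosomal genes (GRCm38.p6) gave the TSSs. Intervals of counting error are not given because libraries were the replicates. Of the 57 libraries, 18 have names with a run number. The labels name separate samples, and mouse codes in the deposited names pair 9 mice over the tissues. H3K4me3 libraries of the same mouse deviated together weakly at most (r from -0.14 to 0.17, over 0.1 in 3 of 9 pairs). In 3 of the 9 pairs the gastrocnemius library of the same mouse had the highest r with the cortex library. The blocked tests were therefore run as well. Single values were tested by exact permutation over tissue labels or sign flips over libraries, two-sided, with Benjamini-Hochberg adjustment over 6 tests. Peak calls were tested by Fisher's exact test per region and H3K4me3 reads by edgeR (version 4.0.16) with TMM factors, both at a false discovery rate of 0.05 over all regions. DESeq2 (1.42.0) was an alternative. R 4.3.3, limma 3.58.1, Python 3.11.15, NumPy 2.4.6, pandas 2.3.3, SciPy 1.17.1, pysam 0.24.0 and matplotlib 3.10.9 were used, and the code was tested on simulated data.

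The sites and the gene lists were chosen with earlier results of these data known. Sites named are, with ties by genome position or name, the 10 of highest lowest density, the 5 with the largest H3K27ac ratio in each direction among those whose tissues do not overlap, the 5 largest H3K4me3 changes by edgeR in each direction, the 5 lowest Fisher p in each direction for either mark, the 10 genes nearest to most sites, and sites near genes of the lists. The sequences and the RefSeq enhancers shown were picked from these after their values were seen. The values of 1 gene of the lists are not reported here.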

Additional observations from a re-analysis of the deposited data

Results flagged for a closer look

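In groups of 9 or 10 libraries, a library whose gap to its nearest neighbour is unusually large for the range of its group was set apart, which chance alone does in about 5% of groups; 30 groups were examined. Cortex library 9 was apart in the number of distal regions that it alone lacked, 807, where the next cortex library had 44. It was also apart in the number of shared sites left when it is taken out, 4470, where the next cortex library gave 3743. This library had 3.90 M reads in H3K27ac peaks, the fewest of the 19, and the part of depth in these values was not tested. With the sites chosen without it, the H3K4me3 difference between the tissues was -15.7 points (exact permutation p = 3.25e-05) and the H3K27me3 difference 1.61 points (exact permutation p = 0.136).

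At the site near Srprb, cortex library 9 held 113 RPM of H3K27ac, where the next cortex library had 92.6. At the same site, gastrocnemius library 5 held 12.2 RPM, where the next had 8.29. The tissues did not overlap with or without these values.

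On chromosome X, which the comparisons above do not use, 38 of 1350 merged H3K27ac regions met the same rule of a peak in all 19 libraries and a gap of more than 5 kb to every TSS.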

How the results depend on the processing

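Of 357 values recomputed under an alternative, 323 kept their direction and their side of the threshold or stayed within the margin, and 13 changed sign. Reads exist only inside peaks, and cortex H3K27ac library 9 and the H3K27me3 libraries of fewest reads (from 2.99 M) limit what a missing peak shows. The number of sites was 2405 with predicted transcripts among the TSSs, 2394 without the 25% of peaks with the lowest score, 217 when each library's peaks had to cover at least 50%, and 3655 to 4470 when 1 library was left out. The H3K4me3 difference between the tissues was -6.72 points within 1 kb, -1.26 with at least 50% covered, -5.09 in libraries with a run number and -16.4 to -14.3 with 1 library left out. With pairing by mouse or by title number as a replicate block it was -16.4 and -15.7 points (exact sign-flip p = 0.00391, lower in the cortex in 9 of 9 pairs), the edgeR counts were 208 and 438 or 208 and 441, against 217 and 443 without it, and neither difference in share between the tissues changed its side of the threshold. The H3K27me3 difference between the tissues, 0.081 points, was -2.79 over the common stretch, -1.85 with at least 50% covered, -1.502 within 1 kb, -1.27 with equally many peaks, 1.74 without and -1.87 with a run number, 1.61 with the sites chosen without cortex library 9, and -0.25 to 0.61 with 1 library left out. The H3K4me3 difference from cortex-only sites was -0.523 with at least 50% covered. Sites with H3K4me3 more often in the cortex (71) numbered 20 without low scores, 32 within 1 kb, 4 with at least 50% covered and 47 without run numbers, and those with it more often in the gastrocnemius (473) 204 within 1 kb, 23 with at least 50% covered and 302 with equally many peaks. Sites with H3K27me3 more often in the cortex (223) numbered 98 within 1 kb, 61 with at least 50% covered and 144 without run numbers, and those with it more often in muscle (204) numbered 120, 87 and 95. For these H3K4me3 and H3K27me3 counts the share over all regions was not computed under the alternatives. By covered bp in place of reads, 206 sites were higher in every cortex library, against 694 by reads, and the share over all regions was not computed there either. The edgeR count in favour of the gastrocnemius was 1112 of 1914 regions called in any library, against 8102 of 20953 over all regions tested. Without low scores it was 203 of 471, against 4337 of 11464. In favour of the cortex the counts were 300 and 159, against 7966 and 4268 over all regions. Other regions were tested in these settings than in the main one. For the remaining shifts the cause was not tested.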
